A study of Mus musculus with 6 samples.

Results

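Homologous recombination and Fanconi repair genes were examined as a group of 39 genes, taken by symbol from the 35932 genes of the count table, in mouse leukemic blasts that were sensitive or resistant to chemotherapy. The members were chosen by their known role in repair. They and the related lists below were chosen with earlier results of these data known. RNA sequencing covered 6 libraries of myeloid leukemic blasts from bone marrow, all of genotype MLL-AF9+, which carry the fusion of Kmt2a (Mll) with Mllt3 (Af9) that drives an acute myeloid leukemia. The 3 sensitive libraries came from blasts labelled with vehicle, and the 3 resistant libraries from blasts labelled with cytarabine (a nucleoside analog that stalls replication) plus doxorubicin (an anthracycline that leaves breaks through topoisomerase II). Resistance and drug exposure therefore coincided in every library and cannot be told apart. The labels give no mouse strain, sex, age, dose, time of harvest or fusion vector, and do not say whether replicates were separate animals, so the p-values rest on differences among 3 libraries a group that may be technical.

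Homologous recombination repairs a broken chromosome by copying the intact sister. The MRN complex and its partner nucleases trim the ends, BRCA1 and BARD1 with PALB2 and BRCA2 load a recombinase on the exposed strand, its paralogs and the RAD54 motors help it to pair with the sister, and helicases and nucleases then separate the joined molecules. The Fanconi pathway joins it at crosslinked or stalled forks, where a core complex attaches ubiquitin to FANCD2 and FANCI. Cycling blood cells depend on both, and inherited loss of a Fanconi gene causes bone marrow failure.

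All 39 members passed the filter on low counts, with 60 to 5003 counts per gene and library. Library totals were 22206341 to 31856009 counts. All 12 markers listed for myeloid blasts were measured, with sums of 4030 to 4550 CPM in sensitive and 3660 to 4170 CPM in resistant libraries. CPM are counts scaled to library size with TMM factors. The 3 higher ones were Hoxa9, Cd34 and Cd33, and the 5 lower ones Cebpa, Csf1r, Flt3, Itgam and Kit. Cebpa changed most, from 95.8 ± 6.1 CPM in sensitive to 25.3 ± 3.55 CPM in resistant libraries. Of the markers of T and NK cells, 8 of 10 stayed below 1 CPM in every library, and Cd8a was lower. Markers of maturing cells differed between the groups: the 12 mature neutrophil markers summed to 215 to 257 CPM in sensitive and 35.3 to 55.5 CPM in resistant libraries (10 of 11 tested were lower), and the 10 monocyte markers to 911 to 995 and 423 to 491 CPM (5 lower, 1 higher). The 10 erythroid markers summed to 47.2 to 82.2 and 2.5 to 3.82 CPM (6 of 8 tested were lower). The other tested ones had higher means and did not pass: Gata1 (0.551 ± 0.0375 and 1.1 ± 0.554 CPM) and Klf1 (0.689 ± 0.0904 and 1.02 ± 0.184 CPM). B cell markers summed to 40.2 to 43.9 and 39.1 to 41.9 CPM (7 of 10 below 1 CPM throughout). This was mostly Cd79b (38.9 ± 1.52 and 38.3 ± 1.61 CPM, did not pass), and Cd22 was lower. Megakaryocyte markers summed to 13.8 to 15.2 and 12.7 to 14.5 CPM, with Gp1ba higher and Itga2b lower. Stromal markers summed to 42.2 to 53.2 and 32.8 to 38.3 CPM. That last sum was mostly Pdgfrb (46.5 ± 5.62 and 34.1 ± 3.13 CPM, lower), and the other 7 of 8 stromal markers were below 1 CPM throughout. The 39 members summed to 1670 to 1710 CPM in sensitive and 1500 to 1590 CPM in resistant libraries. The part of these marker differences in the results on repair genes was not tested, and in such bulk samples fewer cells of a type and less RNA per cell cannot be told apart.

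Resistant blasts had less mRNA of 13 repair genes and more of 2, and 24 did not pass the test (edgeR quasi-likelihood test, Benjamini-Hochberg adjusted p of 0.05 over 13414 genes). Those 13 are 33.3% of the members, where 20.8% of all tested genes were lower, and the 2 are 5.13%, where 18.5% were higher. The lower genes were Rmi2, Mus81, Rad54l, Rad54b, Rad51c, Rad52, Rad51b, Wrn, Fancc, Fancd2, Palb2, Xrcc2 and Eme1, and the higher ones Fanca and Fancb. The members' median log2 fold change (resistant over sensitive) was -0.15, with 30 of 39 values below 0, and that of all tested genes was -0.005, with 50.8% below 0. Changes were moderate: 5 members (12.8%) differed by more than 1.5-fold, against 18% of all tested genes. In 21 members (53.8%) the 3 values of each group did not overlap, close to the 52.4% of all tested genes. The count of lower members was 9 without sensitive library 1 or 2 and 15 without resistant library 2.

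**Figure D1:**
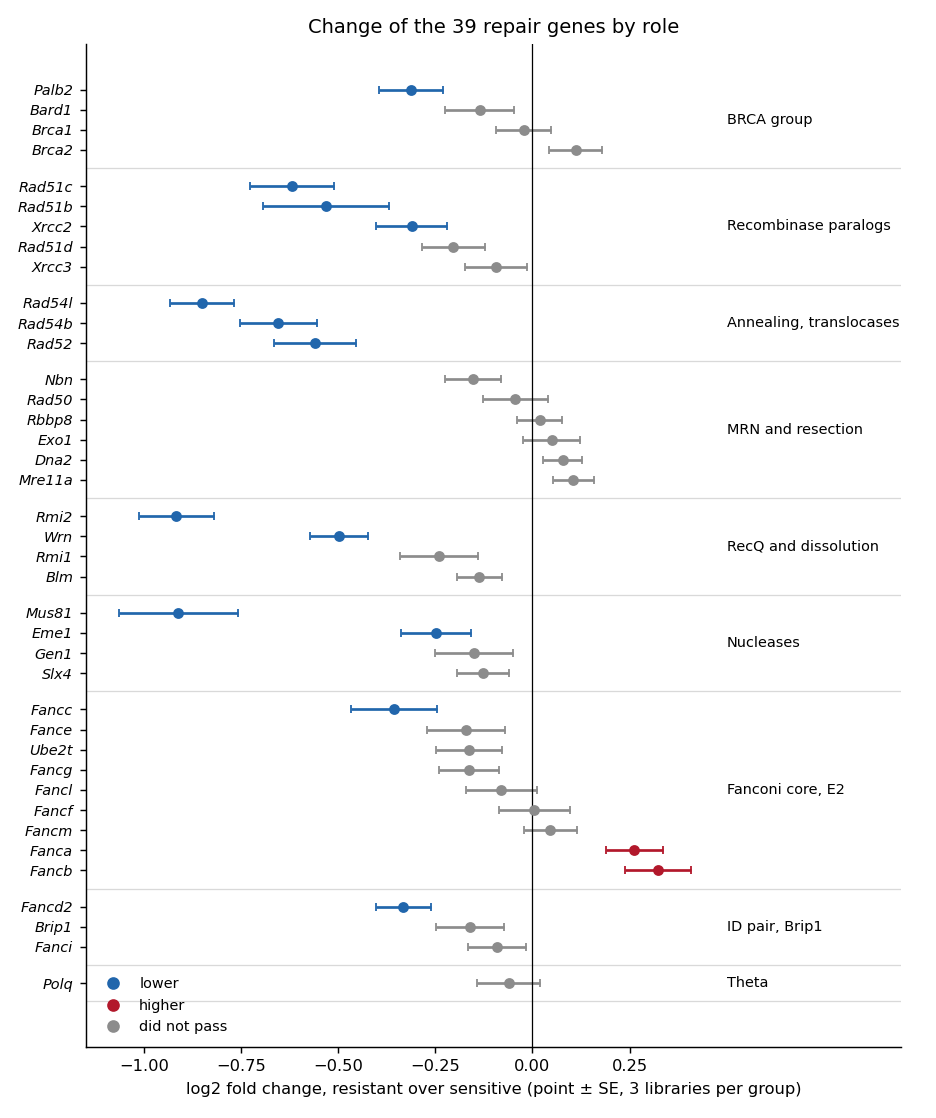
Log2 fold change of each of the 39 repair genes (horizontal axis, resistant over sensitive, point ± SE, 3 libraries per group), grouped by role; blue points were lower, red points higher and grey points did not pass the edgeR test. The annealing and translocase genes lie at -0.85 to -0.56, and the 6 MRN and resection genes at -0.15 to 0.11.

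The start regions of the members were read from RefSeq, whose table (build GRCm38.p6, later than the mm9 the submitters name) held 29 of the 39. The 100 bases before the start are shown for the lower members Rad54l and Mus81 and the higher members Fanca and Fancb, with motifs of cell cycle promoters in capitals. The motifs searched on both strands were the E2F site (TTTCCCGC, TTTCGCGC, TTTGCCGC or TTTGGCGC), the CHR element (TTTGAA or TTTAAA) and the CCAAT box.
Rad54l, chr4:116123691-116123790, minus strand: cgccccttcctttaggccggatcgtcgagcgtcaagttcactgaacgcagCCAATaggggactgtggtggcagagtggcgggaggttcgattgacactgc
Mus81, chr19:5488380-5488479, minus strand: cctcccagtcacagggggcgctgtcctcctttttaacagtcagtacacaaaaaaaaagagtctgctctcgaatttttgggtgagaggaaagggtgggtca
Fanca, chr8:123318577-123318676, minus strand: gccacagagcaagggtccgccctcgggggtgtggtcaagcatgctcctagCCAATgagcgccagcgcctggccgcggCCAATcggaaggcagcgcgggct
Fancb, chrX:164980492-164980591, plus strand: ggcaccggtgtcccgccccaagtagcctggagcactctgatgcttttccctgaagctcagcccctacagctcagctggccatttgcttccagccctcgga
Rad54l holds 1 CCAAT box in this window and Fanca 2, and the letters of the motifs are not in those of Mus81 and Fancb.

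Over 300 bases around each start, an E2F site was found in 5 of the 29 members (17.2%), namely Bard1, Brca2, Fancg, Rad51c and Rmi1. The share was 4.69% of the 9720 tested genes that the table held and 2.6% of all 27025 genes in the table. Shares of tested genes in this paragraph refer to those 9720, not to all 13414. Of the 5 members with an E2F site only Rad51c was among the lower members. The sites whose 30-base window lies wholly before the start are shown here, in capitals within 30 bases, for members that did not pass the test.
Bard1, chr1:71103163-71103192, minus strand: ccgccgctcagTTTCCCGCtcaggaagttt
Brca2, chr5:150522442-150522471, plus strand: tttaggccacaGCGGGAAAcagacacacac
Fancg, chr4:43010335-43010364, minus strand: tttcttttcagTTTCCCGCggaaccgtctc
A CCAAT box was found in 17 of 29 members (58.6%), 4 of 8 lower, 2 of 2 higher and 11 of 19 that did not pass, against 43.3% of tested genes and 41.1% of the table. A CHR element was found in 6 of 29 (20.7%), 3 of 8 lower, 0 of 2 higher and 3 of 19 that did not pass, against 22.7% and 30.6%. A match is a description of these letters and not a bound site.

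Of the 4 genes of the BRCA group, Palb2 alone passed the test, with lower values (25%, near the 20.8% of all tested genes). Brca1, whose product starts the choice for recombination, was at 71.8, 61.1 and 63.5 CPM in sensitive and 65.1, 65.4 and 63 CPM in resistant blasts. Its groups overlapped (log2 fold change -0.02 ± 0.07 SE, 95% interval -0.18 to 0.13). Brca2, which loads the recombinase, was at 49.8, 50.2 and 50.3 against 55.9, 49.7 and 56.7 CPM. Its resistant library 2 lay just below the sensitive ones and the others above them (0.11 ± 0.07, interval -0.04 to 0.26). Palb2, the bridge between both proteins, was at 24.3, 24.7 and 25.5 CPM in sensitive and 20.5, 20.9 and 18.6 CPM in resistant libraries. Every resistant value of Palb2 lay below every sensitive one, a fall of 19.5% (edgeR adjusted p = 0.0116). Bard1, the partner of Brca1 that carries an E2F site above, did not pass (37.6 ± 1.88 and 34.2 ± 3.73 CPM, SD, n = 3 per group).

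Paralogs of the recombinase form small complexes that steady its filament. Of the 5, 3 were lower (60%, against 20.8% of all tested genes), and 2 of these calls depended on single libraries. Rad51c, which is a subunit of both paralog complexes, was at 15.1, 13.9 and 14 CPM in sensitive and 9.67, 10.1 and 8.23 CPM in resistant libraries. The groups were apart, with a log2 fold change of -0.62 ± 0.11, a fall of 34.9% (edgeR adjusted p = 0.00133). Xrcc2 was at 27, 26.8 and 24.6 against 22, 22.4 and 18.8 CPM, with the resistant values all lower (-0.31 ± 0.09, edgeR adjusted p = 0.0204). Its call was lost without sensitive library 1, sensitive library 2 or resistant library 3 (adjusted p of 0.0654 to 0.0742). Rad51b was the least abundant member, at 3.68, 3.73 and 3.66 CPM in sensitive and 2.36, 2.73 and 2.57 CPM in resistant libraries. The groups of Rad51b did not overlap (-0.53 ± 0.16, edgeR adjusted p = 0.024), but the call was lost without any 1 of the sensitive libraries or resistant library 1, and with DESeq2 (adjusted p of 0.0544 to 0.076). Rad51d (-0.20 ± 0.08, edgeR adjusted p = 0.0701, but 0.022 without resistant library 2 and 0.0419 scaled by library totals) and Xrcc3, a partner of Rad51c (-0.09 ± 0.08), did not pass.

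The genes that act on the filament and on exposed strands, Rad54l, Rad54b and Rad52, were all lower, where 20.8% of all tested genes were. Rad54l encodes the main motor that drives strand pairing and remodels chromatin around it. It was at 75.8, 75 and 70.9 CPM in sensitive and 42.3, 44.9 and 35.8 CPM in resistant libraries. The lowest sensitive value was far above the highest resistant one, a 1.8-fold fall (log2 fold change -0.85 ± 0.08, edgeR adjusted p = 2.96e-05). Rad54b, its paralog, was at 18.2, 18.1 and 17.3 against 12.3, 11.7 and 10.1 CPM and fell 1.57-fold (edgeR adjusted p = 0.000561). Rad52, which anneals complementary strands, was at 10.5, 10.1 and 10.3 against 6.65, 7.46 and 6.94 CPM and fell 1.47-fold (edgeR adjusted p = 0.00212). Neither gene had overlapping groups, and all 3 genes passed under each of the 14 alternatives tried.

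Of the 6 end resection genes 0 passed edgeR, 0 at an unadjusted p under 0.05, and 0 with DESeq2 or limma-voom. Of all tested genes 20.8% were lower and 18.5% higher in edgeR. The groups did not overlap in 3 of the 6 (50%, near the 52.4% of all tested genes), namely Mre11a, Nbn and Dna2. Rad50, the ATPase that tethers ends, was at 108, 105 and 103 CPM in sensitive and 112, 107 and 87.4 CPM in resistant libraries. Only resistant library 3 was below the sensitive range (-0.04 ± 0.08, interval -0.23 to 0.14). Mre11a, the nuclease of MRN, was at 73.5, 73.1 and 74 against 80.3, 78.4 and 78.5 CPM, with every resistant value slightly higher, and did not pass (0.11 ± 0.05, edgeR adjusted p = 0.136). Nbn, which recruits the ATM kinase, was at 43.5, 40.7 and 43.3 against 38.8, 40.4 and 35.6 CPM, slightly lower, and did not pass either (-0.15 ± 0.07, edgeR adjusted p = 0.116). Rbbp8 (CtIP, the starter of resection), Exo1 and Dna2 (nucleases of long-range resection) had log2 fold changes of 0.02 ± 0.06, 0.05 ± 0.07 and 0.08 ± 0.05. The upper 95% limits of these 6 genes lay at 0.01 to 0.22 and the lower limits at -0.31 to -0.01 on the log2 scale.

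Among the 4 genes of RecQ helicases and of the complex that undoes joint molecules, Rmi2 and Wrn were lower (50%, against 20.8% of all tested genes). Rmi2, a small subunit that stabilizes the complex of BLM and topoisomerase III, was at 31.5, 33.5 and 32.6 CPM in sensitive and 15.9, 19.9 and 16 CPM in resistant libraries. The groups were far apart, with a log2 fold change of -0.92 ± 0.10 (a 1.89-fold fall, edgeR adjusted p = 5.36e-05). Wrn, the Werner syndrome helicase, was at 60.8, 58.6 and 54.5 against 42.7, 42.8 and 37.6 CPM, also without overlap (-0.50 ± 0.08, edgeR adjusted p = 0.000562). Blm, the Bloom syndrome helicase of the Rmi2 complex, was at 92.1, 87.9 and 85.7 against 82.5, 77.1 and 82 CPM. The Blm groups did not overlap but the change was small and did not pass (-0.14 ± 0.06, edgeR adjusted p = 0.0816; it passed with scaling by library totals, 0.0334). Rmi1, the other subunit, overlapped between groups (32 ± 4.22 and 27 ± 1.28 CPM) and did not pass (edgeR adjusted p = 0.0791), except without sensitive library 3 (0.0159).

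Of 4 genes of structure-selective nucleases, Mus81 and its partner Eme1 were lower (50%, against 20.8% of all tested genes). Mus81, the catalytic subunit, was at 28.8, 30.6 and 34.7 CPM in sensitive and 15.3, 21.7 and 13.4 CPM in resistant libraries. Resistant library 2 stood above the other resistant libraries but below all sensitive ones, and the 1.88-fold fall passed the test (-0.91 ± 0.15, edgeR adjusted p = 0.00111). Eme1 was at 29.2, 30.7 and 29.6 against 26.6, 26.9 and 22 CPM (-0.25 ± 0.09, edgeR adjusted p = 0.0489). This call sat at the threshold: it was lost under 8 of 14 alternatives, among them any 1 sensitive library or resistant library 3 left out, with adjusted p up to 0.149 and a log2 fold change of -0.15 without resistant library 3. Slx4, the scaffold of these nucleases, and Gen1, a resolvase that acts apart from them, did not pass (-0.13 ± 0.07 and -0.15 ± 0.10), though Gen1 passed without resistant library 1 (edgeR adjusted p = 0.0264).

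The Fanconi core group of 9 genes held both higher members (22.2%, against 18.5% of all tested genes) and 1 lower one (11.1%, against 20.8%). Fanca, a large core subunit, was at 96.9, 117 and 117 CPM in sensitive and 133, 132 and 131 CPM in resistant libraries. All resistant values lay above the sensitive ones, a rise of 19.9% (0.26 ± 0.07, edgeR adjusted p = 0.0161), and sensitive library 1 lay below the others of its group. Fancb, an X-linked subunit of the catalytic module, was at 14.7, 14.9 and 14.9 against 19.2, 19 and 17.5 CPM, a rise of 25.1% (edgeR adjusted p = 0.0119). Without sensitive library 2 the call of Fancb was lost (adjusted p = 0.0507). Fancc, a subunit that binds FANCE and FANCF, went the other way, from 17.5, 17.8 and 18.1 to 14.3, 15.7 and 11.7 CPM. Its groups did not overlap (-0.36 ± 0.11, edgeR adjusted p = 0.0265), but the call was lost without any 1 library other than resistant library 2 (adjusted p of 0.0506 to 0.0801). Fance, Fancf, Fancg, the ubiquitin ligase gene Fancl, the translocase gene Fancm and Ube2t, the conjugating enzyme of the pathway, did not pass, with log2 fold changes of -0.17 to 0.05. Fancg passed only without resistant library 2 (edgeR adjusted p = 0.0493).

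Downstream of the core, Fancd2 was lower and its partner Fanci did not pass. Fancd2, which is ubiquitinated on stalled forks, was at 65.8, 65.1 and 58 CPM in sensitive and 48.8, 52.8 and 48.6 CPM in resistant libraries. These groups were apart (-0.33 ± 0.07, a fall of 20.6%, edgeR adjusted p = 0.00437). Fanci was at 43.8, 42.2 and 41 against 41, 42.1 and 36.2 CPM, with resistant libraries 1 and 2 at the sensitive level (-0.09 ± 0.08, interval -0.26 to 0.07). The difference between the changes of Fancd2 and Fanci was not tested. Brip1, the helicase that binds BRCA1, did not pass (42.8 ± 3.18 and 38.3 ± 3.77 CPM). Polq, the polymerase of theta-mediated end joining, which competes with recombination for resected ends, was at 35.6, 36.2 and 32.5 against 34.2, 35.3 and 30.5 CPM. Its groups overlapped (-0.06 ± 0.08, interval -0.24 to 0.12).

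**Figure D2:**
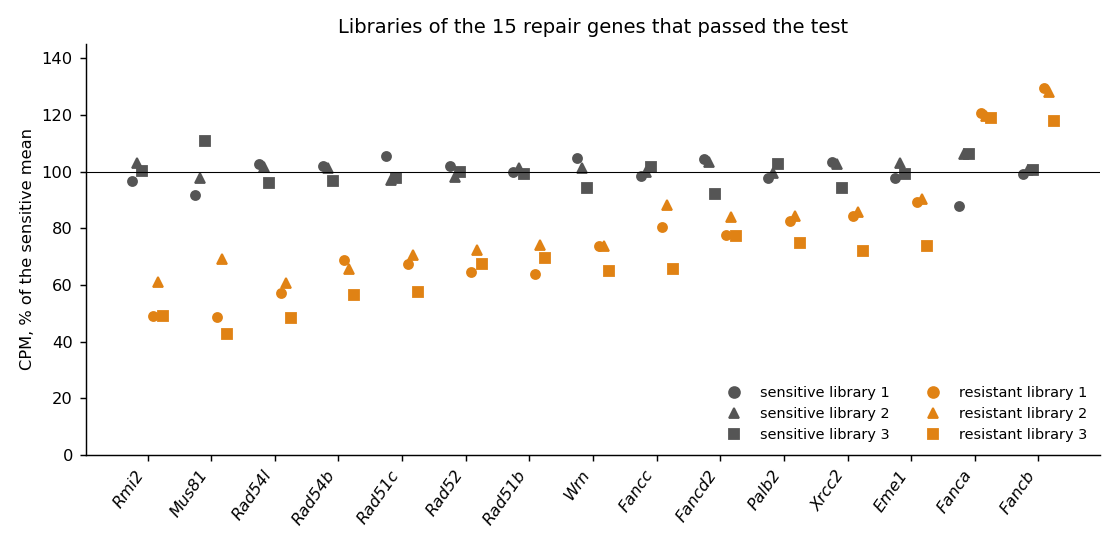
CPM of each library as a percentage of the mean of the 3 sensitive libraries (vertical axis) for the 15 members that passed the test, with grey symbols for sensitive and orange symbols for resistant libraries. In the 13 lower genes resistant library 2 is the highest resistant library in 12 and library 3 the lowest in 10.

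The resistant libraries differed among themselves in the same order in most of the lower genes. Resistant library 3 was the lowest of the group in 10 of the 13 and library 1 in 3, and library 2 was the highest in 12. Relative to the sensitive mean, the median of the 13 genes was -0.54, -0.44 and -0.60 on the log2 scale in resistant libraries 1, 2 and 3. Over the 24 members that did not pass, the medians were -0.06, -0.03 and -0.13. In these 24, library 3 was the lowest in 13 and library 2 the highest in 11. The order of the resistant libraries over all tested genes was not examined. The members were split by the test, so the gap between the medians of both sets follows from that split.

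Levels were compared between genes per kb of exon, with exon lengths from GENCODE M21. The length was the union of exons over all annotated transcripts of a gene (12521 bases for Rbbp8 and 8422 for Exo1). Which transcripts the blasts use was not tested, so the order of genes depends on the annotation. In sensitive blasts the first 3 places were held by Dna2 at 24.9 ± 0.12, Rad50 at 19.6 ± 0.56 and Nbn at 16.8 ± 0.63 CPM per kb, while the other resection genes Rbbp8 and Exo1 were below the median member, at 5.72 ± 0.09 and 5.46 ± 0.30 CPM per kb. Fanca and Mre11a followed at 12.6 ± 1.32 and 12.4 ± 0.08 CPM per kb and did not differ beyond their spread. The median member was at 6.07 CPM per kb in sensitive and 5.4 CPM per kb in resistant blasts. The lowest levels were those of Fancc (2.13 ± 0.04), Rad52 (1.79 ± 0.04) and Rad51b (0.98 ± 0.01 CPM per kb). Of the 38 pairs of neighbours in this order, 12 differed by more than the sum of their SDs. The first 5 and the last 7 places were held by the same genes in both groups, while Rad54l went from place 10 to 22, Mus81 from 12 to 24 and Rmi2 from 18 to 30.

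**Figure D3:**
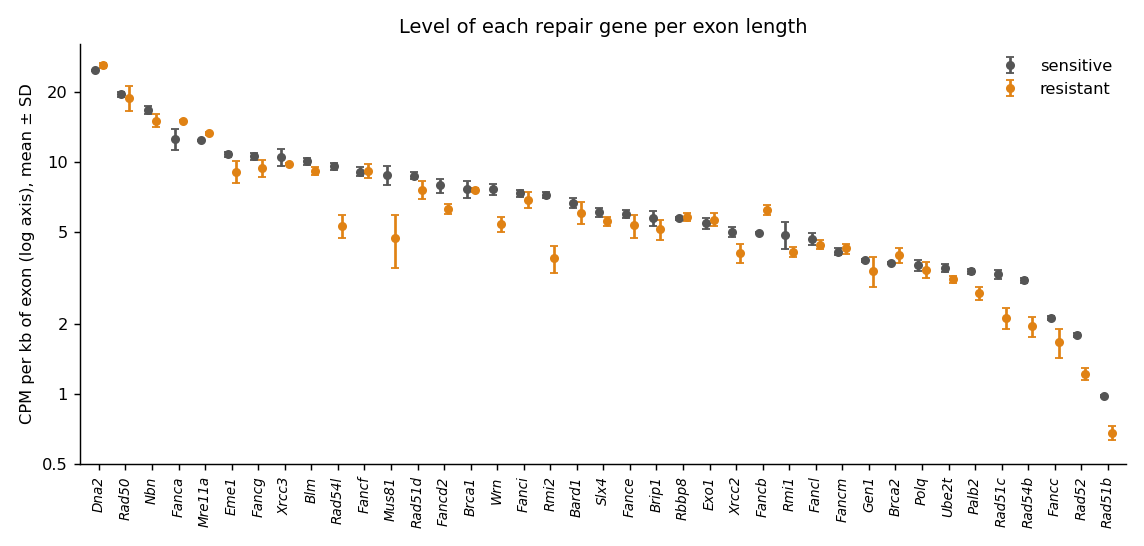
Level of each of the 39 members in CPM per kb of exon (vertical log axis, mean ± SD, n = 3 libraries per group), in the order of the sensitive level. Levels run from 24.9 (Dna2) to 0.98 (Rad51b) in sensitive blasts, and the orange points of Rad54l, Mus81 and Rmi2 sit well below their grey points.

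Exons of several members overlap those of other genes, and whether the counting used strand is not given in the sources used here. By the GENCODE annotation 20 members had no overlapping exon, among them 6 of the 15 that passed (Rad51b, Rad51c, Xrcc2, Rad52, Wrn and Fancb), and 8 had over 10% of their exon bases in common with another gene. Rad54l shares 15.4% with Lrrc41 on the opposite strand, which did not pass (log2 fold change 0.12 ± 0.09), and Mus81 shares 4.85% with Efemp2, which did not pass either (0.14 ± 0.21). Fanca shares 10.5% with Zfp276, which was lower (-0.48 ± 0.07), and Eme1 shares 10.7% with other genes, of which Lrrc59 was higher (0.23 ± 0.05). None of these 4 neighbours passed in the direction of the member it overlaps, whereas 2010111I01Rik, which overlaps Fancc, was lower like Fancc. Mus81 also has 186 of its 50-base stretches in Gm48985, against 124 in Efemp2. Among members that did not pass, Fanci shares 16% with Polg, which was lower (-0.35 ± 0.06), and Fancf shares 15% with Gas2, which was higher (0.74 ± 0.14). Rad54b has 34.5% of its 50-base stretches in Fsbp, a gene on the same strand that was not tested, and overlaps Gm11832 on the other strand, which did not pass (-1.05 ± 0.44). Fancc shares 18.6% of its exon bases with genes on the other strand, mainly Gm16133, which was not tested. Of its 50-base stretches 1325 are in Gm16133 and 94 in 2010111I01Rik, which was lower too (-0.75 ± 0.13). The part of reads from such neighbours was not tested, so the values of Rad54b and Fancc are uncertain. Rmi1 has 27.3% of its 50-base stretches in other transcripts, mainly Gm20775.

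The other genes of the pathway were 56 genes of checkpoint signalling, chromatin response, the Fanconi accessory proteins and further repair factors. Among the latter are Rad51ap1, Swi5, Mcm8, Rpa1, Rev3l, Ercc4 and Fan1. The list held 12 lower genes (21.4%, near the 20.8% of all tested genes), 3 higher (5.36%, against 18.5%) and 41 that did not pass. Its median log2 fold change was -0.05. H2afx, the histone variant that is phosphorylated around breaks, fell by 0.82 ± 0.08 and Faap100, a partner of FANCB, fell by 0.71 ± 0.10 on the log2 scale. Rad9a, of the checkpoint clamp, Helq, a repair helicase, Rif1, which restrains resection, and Rfwd3, a Fanconi ubiquitin ligase, fell by 0.44, 0.39, 0.23 and 0.23. Faap100 was thus lower where Fancb was higher. The count of lower genes dropped to 6 without sensitive library 1 or 2, and that of higher genes to 0 without sensitive library 2 or 3.

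Some repair genes are transcribed mostly in cycling cells, so 2 lists of cell cycle genes were read from the same fit. Of 45 DNA replication genes 4 were higher (8.89%) and 6 lower (13.3%), both below the shares of all tested genes (18.5% and 20.8%), with a median of -0.03. The 6 with the smallest adjusted p were the primase gene Prim1 (0.40 ± 0.06) and Pole (0.22 ± 0.05), the catalytic subunit of polymerase epsilon, which rose, and its subunit gene Pole2 (-0.34 ± 0.06), Cdc45 (-0.39 ± 0.08), Mcm10 (-0.20 ± 0.06) and Clspn (-0.16 ± 0.05), which fell. Mcm10 lost its call under 4 and Clspn under 6 of 14 alternatives. The count of higher genes was 2 without any 1 sensitive library or resistant library 3, and that of lower genes 3 without sensitive library 1 or 3 or resistant library 1 and 2 without sensitive library 2. Of 36 mitosis genes 16 were lower (44.4%, against 20.8% of all tested genes) and 1 higher (2.78%, against 18.5%), with a median of -0.16, and 9 were lower without sensitive library 2. Kif11, a spindle motor, fell by 0.61 ± 0.06, and Bub1b, Ube2c, Anln, Ndc80 and Plk1 fell by 0.29 to 0.45 on the log2 scale. The members' median of -0.15 lay near that of the mitosis genes and below that of the replication genes. Whether these lists take part in the changes of the repair genes was not tested.

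**Figure D4:**
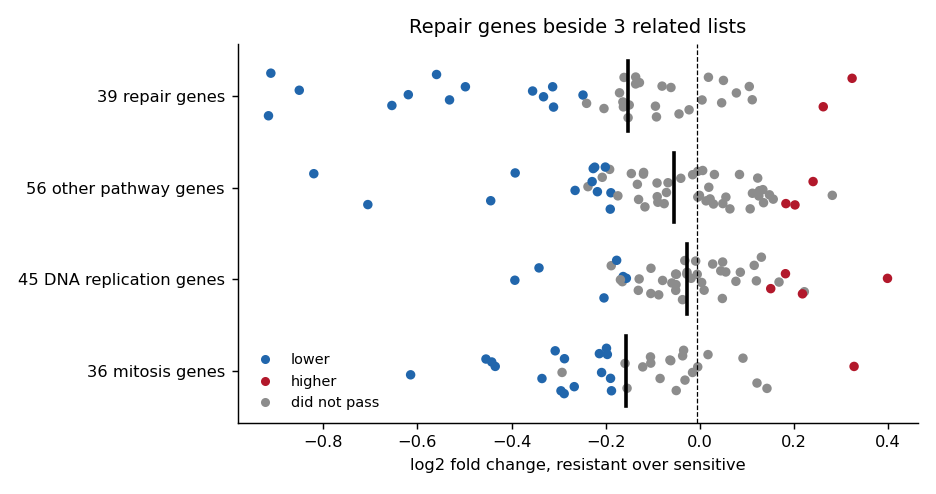
Log2 fold change (horizontal axis, resistant over sensitive) of each gene in 4 lists, with blue for lower, red for higher and grey for not passing; black bars are list medians and the dashed line is the median of all tested genes. The medians are -0.15 (repair), -0.05 (other pathway), -0.03 (replication) and -0.16 (mitosis).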

How the data were processed

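Counts per Ensembl gene were deposited by the authors as whole numbers in 1 table of 35932 genes. TopHat2, RSEM and the mouse build mm9 are named in the submitters' processing notes, without roles or versions; whether the deposited counts are direct or rounded estimates, the annotation and the treatment of shared reads are not given in these sources. Libraries were grouped by title, 3 per group, and 0 columns were left unused. IDs were named with GENCODE M21 (31636 matched). Members and lists were chosen with earlier results of these data known. Counts were filtered with filterByExpr (minimum count 10), scaled with TMM and tested on all 13414 genes in edgeR 4.0.16 (R 4.3.3; glmQLFit and glmQLFTest, group only, two-sided) at a Benjamini-Hochberg adjusted p of 0.05; the script was tested on simulated data. The SE is the log2 fold change over the root of F. A floor of 3 counts was 0.0945 to 0.137 CPM. Within-group library pairs differed by more than sampling noise (chi-square of 3.92 to 13.58 for each degree of freedom). Values in every library are given for members that passed and for 11 fixed genes (Brca1, Brca2, Palb2, Rad50, Mre11a, Nbn, Fancd2, Fanci, Fanca, Blm and Polq), and the 6 genes with the smallest p are named from each related list. Alternatives were 3 other scalings, DESeq2 1.42.0, limma-voom (limma 3.58.1), 2 other filters (none, or 1 CPM in 3 libraries), the replicate number as a block and each library left out.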

Additional observations from a re-analysis of the deposited data

How the results depend on the processing

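Of the 15 members that passed, 10 passed under all 14 alternatives and 5 lost the call at least once (Rad51b, Xrcc2, Eme1, Fancb and Fancc); no call changed direction. Of the 24 others, 5 gained a call at least once and 19 did not. The members' median log2 fold change stayed between -0.19 and -0.14. With 1 library left out, the members counted 1 to 2 higher and 9 to 15 lower. Over the same fits, all tested genes had 1641 (without sensitive library 2) to 2521 higher and 2015 to 2711 lower, the other pathway genes 0 to 3 higher and 6 to 12 lower, replication genes 2 to 5 higher and 2 to 6 lower with medians of -0.046 to 0.02, and mitosis genes 1 to 2 higher and 9 to 17 lower with medians of -0.166 to -0.117. Scaling by library totals gave the other pathway genes 1 higher and a median of -0.087, and replication genes 2 higher. It moved the median of all genes from -0.005 to -0.039. The cause of these shifts was not tested. Over the fits that leave 1 library out, 5 members near 0 that did not pass turned sign: Brca1 ranged from -0.0708 to 0.0482, Rad50 from -0.1146 to 0.0626, Rbbp8 from -0.0143 to 0.0523, Fancf from -0.0437 to 0.0506 and Polq from -0.1111 to 0.0061. The turns were Brca1 to 0.0482 without sensitive library 1 and 0.0011 without resistant library 3, Rad50 to 0.0626 and Polq to 0.0061 without resistant library 3, Rbbp8 to -0.0149 (library totals) and -0.0143 (without resistant library 1), and Fancf to -0.0287 (library totals), -0.0296 (without sensitive library 1) and -0.0437 (without resistant library 2). Same-numbered libraries did not deviate together (correlations of 0.037, -0.006 and -0.086), and 2 of 6 libraries correlated best with their own number. No pairing by number was seen, but so few libraries cannot exclude a shared animal or day. With the replicate block 12 members were lower and 2 higher, and the call of Rad51b was lost (adjusted p = 0.05). The lowest count of a member in any library was 60, for Rad51b; how depth limits the calls was not tested.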
